A study of Mus musculus with 12 samples.

Results

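The antioxidant genes controlled by NRF2 were examined in adipose tissue macrophages (ATMs) of WT and miR-146a-/- mice. They comprise 10 genes, taken by gene name from the 15393 genes of the deposited expression table: Nfe2l2, which encodes NRF2 itself, and Srxn1, Txnrd1, Nqo1, Gclm, Gclc, Slc7a11, Gsr, Prdx1 and Prdx6. RNA was sequenced from 12 libraries in 4 groups of 3. The groups were WT mice on normal chow diet (NCD), miR-146a-/- mice on NCD, WT mice on high-fat diet (HFD) and miR-146a-/- mice on HFD, all on the C57BL/6 background. Diets began at 6 weeks of age and lasted 14 weeks, so that all mice were 20 weeks old when the cells were taken. For each library the stromal vascular cells of 3 mice were pooled, and live cells positive for CD45, CD11b and F4/80 were then sorted. The microRNA gene was deleted in the whole mouse and not in macrophages alone, and the deleted microRNA itself was not analysed here.

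NRF2 is a transcription factor that KEAP1 holds in the cytoplasm and delivers to the proteasome. Oxidants and electrophiles modify KEAP1, NRF2 then enters the nucleus, pairs with a small MAF protein and binds antioxidant response elements, from which BACH1 otherwise represses transcription. Its targets supply the glutathione system (cystine import by Slc7a11, synthesis by Gclc and Gclm, recycling by Gsr). They also supply the thioredoxin system (Txnrd1, with the peroxide-reducing Prdx1 and the enzyme Srxn1 that repairs oxidised peroxiredoxins). The peroxiredoxin Prdx6 and the quinone reductase Nqo1 are among the targets as well. In macrophages these systems limit the damage from the oxidants the cells make themselves.

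The core of the antioxidant response element was looked for in the members' promoters. The letters TGACNNNGC were searched on both strands from 250 bases before to 50 bases after each RefSeq start site (GRCm38.p6). RefSeq promoters were matched for 7 of the 10 genes (Gclc, Gsr and Prdx6 had no entry), and 5 of the 7 held 1 match, against 17.4% of the 8409 tested genes with a promoter and 12.4% of all 32851 promoters. The 5 matches are printed with 10 bases on either side, turned so that each reads in the direction of the motif, with the match in capitals.
Nfe2l2, chr2:75704885-75704913, minus strand: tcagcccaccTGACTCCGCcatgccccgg
Srxn1, chr2:152105542-152105570, minus strand: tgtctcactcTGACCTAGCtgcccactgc
Txnrd1, chr10:82859104-82859132, minus strand: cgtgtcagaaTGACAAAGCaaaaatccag
Gclm, chr3:122245413-122245441, minus strand: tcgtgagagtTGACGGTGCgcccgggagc
Prdx1, chr4:116685456-116685484, minus strand: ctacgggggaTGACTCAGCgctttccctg

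The matches began 240 bases before the start site of Nfe2l2, 92 before that of Txnrd1, 134 before that of Gclm and 133 before that of Prdx1, and 29 bases after that of Srxn1. The match of Prdx1 also spells TGACTCA, the site of AP-1 factors, and the others do not. These matches only describe the sequence. Binding by NRF2 was not tested, and elements outside these windows or of another spelling were not searched. The Txnrd1 promoter is shown whole, since this gene had the smallest p of the 10 in the diet comparison in WT. It is 1 of 3 RefSeq promoters of that gene, the one beside the start the expression table uses, and the match (here on the opposite strand) is in capitals.
Txnrd1 promoter, chr10:82858956-82859255, plus strand: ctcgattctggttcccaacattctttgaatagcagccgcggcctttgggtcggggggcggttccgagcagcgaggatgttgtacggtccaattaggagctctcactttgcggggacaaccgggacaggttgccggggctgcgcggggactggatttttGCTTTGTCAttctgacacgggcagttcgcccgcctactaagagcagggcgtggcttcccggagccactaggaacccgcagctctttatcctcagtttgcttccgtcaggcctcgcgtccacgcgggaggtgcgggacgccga

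Whether the deleted microRNA could pair with these transcripts was looked at in the same way. Mature miR-146a-5p comes from chr11:43374435-43374456 on the minus strand of the same build, and its seed, bases 2 to 8, is in capitals.
miR-146a-5p: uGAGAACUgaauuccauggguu
The complement of that seed, AGTTCTC, was found in the annotated 3' UTR of 1 of the 10 genes, Gclc, against 12.4% of 10673 tested genes. A match of these letters is a description of the sequence and not a binding site.

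Between 9998868 and 11559282 reads per library were counted to genes. The summed level of 12 macrophage markers was 12886 to 15537 FPKM in every library, with none of them at 0. Lyz2 alone gave 6715 to 8147 FPKM of it. However, 1 library, miR-146a-/- HFD replicate 1, stood apart. Adgre1 (334 FPKM), Mrc1 (440 FPKM), C1qa (1599 FPKM) and C1qb (1246 FPKM) were there at their lowest of the 12 libraries. Itgam (255 FPKM), Ptprc (330 FPKM) and Mertk (42.9 FPKM) were there at their highest. In miR-146a-/- HFD replicate 1 the summed level of 15 neutrophil markers was 22334 FPKM, against 628 and 668 FPKM in replicates 3 and 2 of its group, 740 to 1834 FPKM in miR-146a-/- on NCD, 218 to 273 FPKM in WT on NCD and 151 to 199 FPKM in WT on HFD. Of these markers the granule genes Camp and Elane were at 0 in every WT library, as was Ly6g in WT on HFD. The monocyte markers were also at 3866 FPKM in that library, against 250 to 575 FPKM in the other 11. Most of that sum was Chil3, which is in both marker lists and stood at 2730 FPKM there, and without it the monocyte markers were at 1136 FPKM, against 247 to 511 FPKM in the other 11. Results that this library moved are given with and without it. In sorted pools, fewer cells of a type and less RNA per cell cannot be told apart.

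FPKM divides by gene length, so the levels of the 10 genes can be set beside each other. In WT on NCD Nfe2l2 was highest at 73.5 ± 9.21 FPKM (SD, n = 3), followed by Prdx1 at 52.6 ± 7.38 FPKM and Txnrd1 at 43.9 ± 3.35 FPKM. Prdx6 (19.8 ± 1.32 FPKM) and Gsr (17.8 ± 1.87 FPKM) had overlapping libraries, then came Srxn1 (14.1 ± 1.01 FPKM) and Gclc (9.21 ± 0.883 FPKM). The least expressed were Gclm (3.13 ± 0.568 FPKM), Slc7a11 (1.36 ± 0.307 FPKM) and Nqo1 (0.893 ± 0.234 FPKM), of which the last pair overlapped. All 10 passed the filter of a mean of 1 FPKM over the 12 libraries. Nqo1 did so through 1 library, since its mean was 1.07 FPKM with and 0.90 FPKM without miR-146a-/- HFD replicate 1, and it rested on 8 to 52 reads per library.

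**Figure D1:**
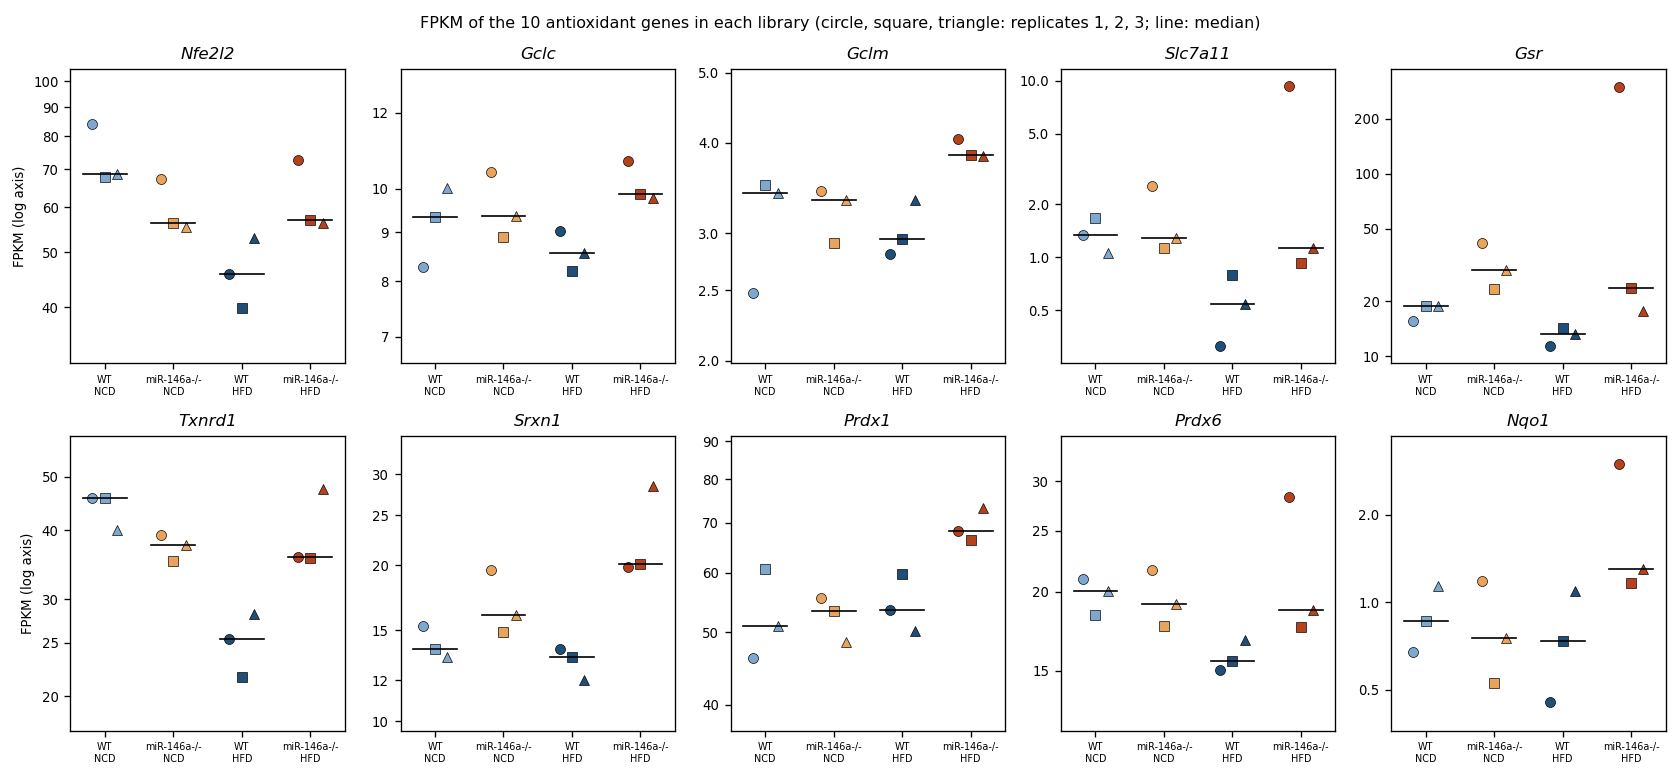
FPKM (log axis, a scale for each gene) of the 10 genes in each of the 12 libraries, with circles, squares and triangles for replicates 1, 2 and 3 and a line at the group median. In all 10 panels the 3 miR-146a-/- libraries on HFD lie above the 3 WT libraries on HFD, and replicate 1 of miR-146a-/- on HFD lies far above its group for Gsr at 299.4 FPKM and Slc7a11 at 9.35 FPKM.

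The genotype comparison on HFD asked whether ATMs of HFD-fed mice without miR-146a express these genes at another level. Nqo1 is described apart, since it entered the test through this group. Each of the other 9 genes was higher in every miR-146a-/- library than in any WT library on HFD. Groups that did not overlap in this direction made up 8.51% of the 12119 genes tested. The median log2 fold change of the 9 genes was 0.42, against -0.02 for all genes tested. All 9 had an unadjusted p under 0.05 and a positive fold change, against 7.16% of all genes. On leaving out miR-146a-/- HFD replicate 1 this count was 5 of 9 (Srxn1, Txnrd1, Prdx1, Gsr and Nfe2l2), against 6.98% of all genes, and the median was 0.35. After adjustment over all genes 1 gene, Srxn1, passed the test, and 0.281% of all genes passed in that direction. Srxn1, Txnrd1, Nqo1, Gsr, Prdx6, Gclm and Slc7a11 had been picked for display by the study from these same libraries, so their direction is not independent evidence, and neither is that of Nfe2l2, Gclc and Prdx1, since all the members were chosen with earlier results of these data known.

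Srxn1, the sulfiredoxin that reduces overoxidised peroxiredoxins, stood at 13.8, 13.3 and 11.99 FPKM in WT on HFD and at 19.9, 20.2 and 28.5 FPKM in miR-146a-/- on HFD. The lowest knockout library exceeded the highest WT library, and replicate 3 was the highest of the group. The group means were 13.02 ± 0.93 and 22.8 ± 4.88 FPKM (SD, n = 3 each), a log2 fold change of 0.75 (SE 0.14, adjusted p = 0.047 by limma on log2(FPKM + 1), Benjamini-Hochberg). The difference was as large on leaving out miR-146a-/- HFD replicate 1, the library rich in neutrophil markers, with a log2 fold change of 0.83 (limma adjusted p = 0.031). The call stood near the threshold, and the limma adjusted p ran from 0.015 to 0.31 over the 20 alternatives. It was lost when genes of low level were kept (limma adjusted p = 0.053), when only the compared groups entered the fit (0.31), and without any 1 of the other libraries except miR-146a-/- HFD replicate 2, with limma adjusted p of 0.056 to 0.16.

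Txnrd1, the cytosolic thioredoxin reductase, stood at 25.5, 21.7 and 28.2 FPKM in WT on HFD and at 35.7, 35.6 and 47.4 FPKM in miR-146a-/- on HFD. Here too the groups were apart and replicate 3 was the highest knockout library. The means were 25.1 ± 3.29 and 39.6 ± 6.80 FPKM (SD, n = 3 each), with a log2 fold change of 0.63 (SE 0.13) and a limma adjusted p of 0.054, just outside the threshold. It passed with limma voom on the recovered reads (adjusted p = 0.034), with a stricter filter (0.048) and with array quality weights (0.015). Of all genes 594 passed with those weights, against 76 without them. Txnrd1 also passed on leaving out miR-146a-/- HFD replicate 1 (limma adjusted p = 0.043), with a log2 fold change of 0.70. Over the 20 alternatives its limma adjusted p ran from 0.015 to 0.37.

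The peroxiredoxins, which reduce peroxides, differed less. Prdx1 stood at 53.6, 59.9 and 50.3 FPKM in WT and at 68.3, 66.3 and 73.2 FPKM in miR-146a-/- on HFD. This was a log2 fold change of 0.34 (SE 0.11, limma adjusted p = 0.16), close to the 0.35 obtained without replicate 1. Prdx6, which reduces phospholipid hydroperoxides, stood at 15.1, 15.5 and 16.8 FPKM in WT and at 28.3, 17.6 and 18.7 FPKM in miR-146a-/-. Most of that gap came from 1 library, for the log2 fold change of 0.40 (SE 0.15, limma adjusted p = 0.22) was 0.19 (SE 0.095) without replicate 1.

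The transcript of NRF2 itself, Nfe2l2, stood at 45.8, 39.9 and 53.0 FPKM in WT and at 72.6, 57.0 and 56.4 FPKM in miR-146a-/- on HFD. The log2 fold change was 0.42 (SE 0.14, limma adjusted p = 0.18), and 0.30 without replicate 1. Gclc and Gclm, the catalytic and modifier subunits of glutamate-cysteine ligase, which makes the first step of glutathione, had narrow spreads. Gclc was at 8.20 to 9.04 FPKM in WT and 9.78 to 10.7 FPKM in miR-146a-/- (log2 fold change 0.21, SE 0.087, limma adjusted p = 0.25). Gclm was at 2.81 to 3.34 FPKM in WT and 3.84 to 4.05 FPKM in miR-146a-/- (log2 fold change 0.29, SE 0.12, limma adjusted p = 0.23). Neither passed the test, though in both the groups did not overlap.

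Gsr, the glutathione reductase, and Slc7a11, the cystine transporter, had the widest spread of the 10 genes. Gsr stood at 11.4, 14.4 and 13.2 FPKM in WT on HFD and at 299.4, 23.7 and 17.7 FPKM in miR-146a-/- on HFD, with a log2 fold change of 1.89 (SE 0.83, limma adjusted p = 0.28). Slc7a11 stood at 0.31, 0.80 and 0.54 FPKM in WT and at 9.35, 0.93 and 1.12 FPKM in miR-146a-/-, with a log2 fold change of 1.18 (SE 0.53, limma adjusted p = 0.28). In both genes the single library rich in neutrophil markers was far above the other libraries. Replicate 1 exceeded the mean of replicates 2 and 3 by 14.4 times for Gsr, 9.11 times for Slc7a11, 2.42 times for Nqo1, 1.56 times for Prdx6 and 1.28 times for Nfe2l2. For Gclc (1.09) and Gclm (1.05) the ratio was slightly above 1, and for Prdx1 (0.98), Txnrd1 (0.86) and Srxn1 (0.82) it was below 1. The part of neutrophil RNA in these levels was not tested.

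Replicates 2 and 3 alone were above every WT library on HFD for the same 9 genes and for Nqo1, as were 13.9% of all genes tested. For these members that follows from the place of all 3 replicates above WT, so it is no separate check. Without replicate 1 the log2 fold change of Gsr was 0.63 (SE 0.22, limma adjusted p = 0.20), that of Slc7a11 0.40 (SE 0.23, limma adjusted p = 0.46) and that of Nqo1 0.36 (SE 0.21, limma adjusted p = 0.45). Nqo1, the quinone reductase often used as a marker of NRF2 activity, had stood at 0.45, 0.73 and 1.09 FPKM in WT and at 2.99, 1.17 and 1.30 FPKM in miR-146a-/- on HFD, with a log2 fold change of 0.64 (SE 0.25, limma adjusted p = 0.23) over all 3 replicates. Even without that library the summed neutrophil markers of miR-146a-/- on HFD stayed above those of WT on HFD, and their part in these differences was not tested.

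**Figure D2:**
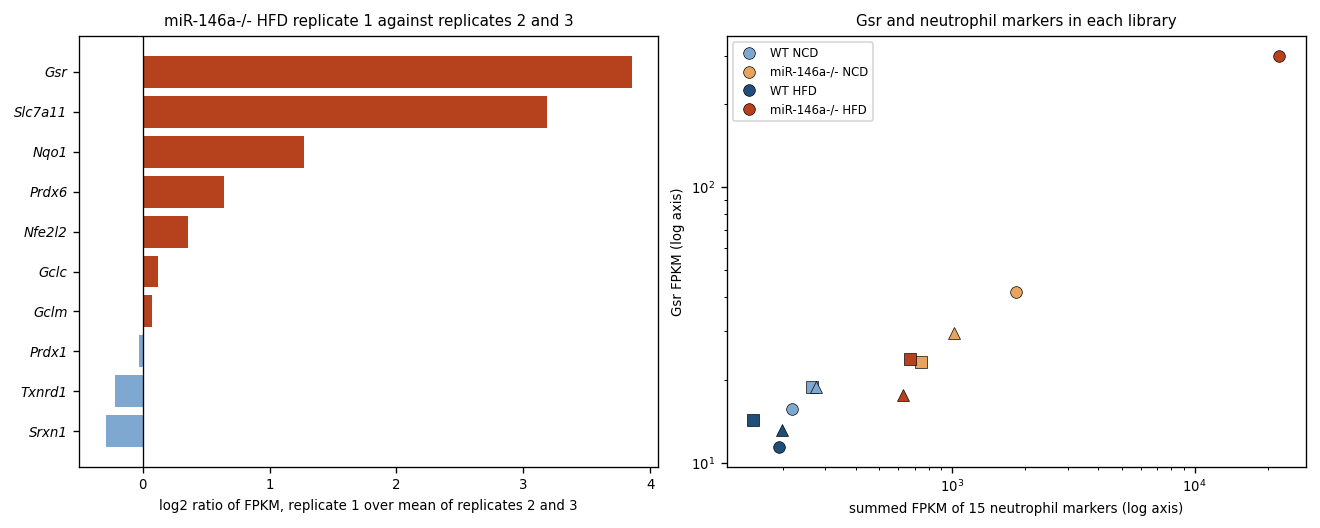
Left, log2 ratio of FPKM in miR-146a-/- HFD replicate 1 over the mean of replicates 2 and 3, a bar for each gene. Right, Gsr FPKM against the summed FPKM of 15 neutrophil markers in each of the 12 libraries (both axes log, circles, squares and triangles for replicates 1, 2 and 3). Gsr has the longest bar (3.85 on the log2 scale), Srxn1 the lowest (-0.29), and the library at 22334 FPKM of neutrophil markers is the one with Gsr at 299.4 FPKM.

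On NCD, where the same genotypes were compared, none of the 10 genes passed the test, none had an unadjusted p under 0.05, and limma voom also called 0. Of all genes 0.124% passed, in either direction. Nfe2l2 and Txnrd1 were lower in every miR-146a-/- library than in any WT library, where 7.91% of all genes were so placed, and Gsr was higher in every one, where 10.4% were. On leaving out miR-146a-/- HFD replicate 1, whose spread enters the same fit, 2 of the 10 genes, Gsr and Nfe2l2, had an unadjusted p under 0.05 (0.0032 and 0.033), against 10.6% of all genes, and neither passed after adjustment. The median log2 fold change of the 10 genes was 0.02, the same as that of all genes tested.

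Nfe2l2 stood at 84.1, 67.8 and 68.6 FPKM in WT on NCD and at 67.3, 56.3 and 55.4 FPKM in miR-146a-/- on NCD (log2 fold change -0.29, SE 0.14, limma adjusted p = 0.77). Txnrd1 stood at 45.8, 45.8 and 40.0 FPKM in WT and at 39.3, 35.3 and 37.7 FPKM in miR-146a-/- (log2 fold change -0.22, SE 0.13, limma adjusted p = 0.85). Both were thus placed in the opposite order to that seen on HFD. Gsr stood at 15.6, 18.8 and 18.9 FPKM in WT and at 41.6, 23.3 and 29.5 FPKM in miR-146a-/- (log2 fold change 0.75, SE 0.83, limma adjusted p = 0.95). The SE of Gsr shares the spread of the HFD libraries. Leaving out replicate 1 of miR-146a-/- on HFD brought it to 0.19 and the limma adjusted p to 0.17.

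The 3 Gsr values of miR-146a-/- on NCD were in the same order as the summed neutrophil markers of those libraries, which were 1834, 740 and 1013 FPKM in replicates 1, 2 and 3. All 6 miR-146a-/- libraries had a higher sum of these markers than any WT library, but this did not hold for each marker. Mmp9 was at 99.8, 81.2 and 87.8 FPKM in miR-146a-/- on HFD and at 108.2, 77.4 and 123.7 FPKM in WT on HFD. Among the 13 markers tested 13 had a fold change above 0 between genotypes on NCD and 12 on HFD. Of these markers 1 passed as higher on NCD and 3 on HFD. Their part in the level of Gsr was not tested. Srxn1, which passed on HFD, stood at 15.2, 13.8 and 13.3 FPKM in WT and at 19.6, 14.9 and 16.1 FPKM in miR-146a-/- on NCD (log2 fold change 0.23, SE 0.14, limma adjusted p = 0.86), with overlapping groups. The other 6 genes had log2 fold changes between -0.06 and 0.14.

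The diet comparison in WT asked how HFD changed these genes where miR-146a was intact. Of the 10 genes 2, Txnrd1 and Nfe2l2, fell and none rose, while 2.15% of all genes passed as lower. The log2 fold change was above 0 for 1 of the 10 genes, against 51.0% of all genes. An unadjusted p under 0.05 and a negative fold change were seen for 2 of the 10 genes, against 10.1% of all genes, and without miR-146a-/- HFD replicate 1 for 4 (with Prdx6 and Slc7a11), against 13.7%. Txnrd1, Nfe2l2, Slc7a11, Gsr and Prdx6 were lower in every HFD library than in any NCD library, where 15.7% of all genes were so placed.

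Txnrd1 fell from 43.9 ± 3.35 FPKM on NCD to 25.1 ± 3.29 FPKM on HFD (SD, n = 3 each), a log2 fold change of -0.79 (SE 0.13, limma adjusted p = 0.012). It ranked 73rd by p among the 12119 genes. Nfe2l2 fell from 73.5 ± 9.21 to 46.2 ± 6.60 FPKM (log2 fold change -0.66, SE 0.14, limma adjusted p = 0.035). The highest HFD library of each gene, 28.2 FPKM for Txnrd1 and 53.0 FPKM for Nfe2l2, was below its lowest NCD library, 40.0 and 67.8 FPKM. On leaving out WT NCD replicate 1, the library with the most Nfe2l2, neither passed (limma adjusted p = 0.060 for Txnrd1 and 0.13 for Nfe2l2). Nfe2l2 was also lost without any 1 of WT NCD replicates 2 and 3 (0.064 and 0.087), miR-146a-/- NCD replicates 2 and 3 (0.052 and 0.054) and WT HFD replicates 1 and 2 (0.11 and 0.12). Over the 20 alternatives the limma adjusted p ran from 0.0013 to 0.060 for Txnrd1 and from 0.0035 to 0.13 for Nfe2l2.

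Prdx6 stood at 21.0, 18.4 and 20.0 FPKM on NCD and at 15.1, 15.5 and 16.8 FPKM on HFD in WT (log2 fold change -0.31, SE 0.15, limma adjusted p = 0.30). Its spread was shared with the miR-146a-/- HFD group, and it passed without replicate 1 of that group (SE 0.085, limma adjusted p = 0.046). That fit called 3 members and 1185 of all 12119 genes in either direction, against 361 genes over all libraries. Over the 20 alternatives the limma adjusted p of Prdx6 ran from 0.043 to 0.52. Slc7a11 stood at 1.33, 1.67 and 1.06 FPKM on NCD and at 0.31, 0.80 and 0.54 FPKM on HFD, on 40 to 197 reads per library (log2 fold change -0.61, SE 0.53, limma adjusted p = 0.59). Gsr stood at 13.00 ± 1.48 FPKM on HFD against 17.8 ± 1.87 FPKM on NCD (log2 fold change -0.43, SE 0.83, limma adjusted p = 0.83). None of these 3 passed over all libraries.

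Srxn1, Gclc, Gclm, Prdx1 and Nqo1 had overlapping groups in the WT diet comparison, with log2 fold changes between -0.11 and 0.06. Markers of other cells also moved with diet. The summed level of 8 mast cell markers was 180 to 364 FPKM in WT on NCD and 22 to 42 FPKM in WT on HFD, and that of the monocyte markers 396 to 458 and 250 to 283 FPKM. The mast cell markers were likewise at 135 to 273 FPKM on NCD and 14 to 53 FPKM on HFD in miR-146a-/-, where Txnrd1 and Nfe2l2 did not pass the test. Their part in the fall of these genes in WT was not tested.

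In miR-146a-/- mice none of the 10 genes passed the test between HFD and NCD, limma voom called 0, and 0.759% of all genes passed in either direction. Nqo1 is again described apart, since it entered the test through the HFD group compared here. Of the other 9 genes 2 had an unadjusted p under 0.05 and a positive fold change, against 3.67% of all genes. These were Prdx1 (log2 fold change 0.40, SE 0.11, limma adjusted p = 0.14) and Srxn1 (0.41, SE 0.14, limma adjusted p = 0.24). Nqo1 had a log2 fold change of 0.59 (SE 0.25, limma unadjusted p = 0.038, adjusted p = 0.34). On leaving out miR-146a-/- HFD replicate 1 Nqo1 had a log2 fold change of 0.31 and an unadjusted p of 0.17, while Gsr, then at -0.55, had one of 0.029 (limma adjusted p = 0.26). Srxn1, Gclm and Prdx1 were higher in every HFD library than in any NCD library, where 5.72% of all genes were so placed.

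Prdx1 stood at 55.6, 53.3 and 48.4 FPKM on NCD and at 68.3, 66.3 and 73.2 FPKM on HFD in miR-146a-/-. Gclm stood at 3.43, 2.91 and 3.34 FPKM on NCD and at 4.05, 3.85 and 3.84 FPKM on HFD (log2 fold change 0.22, SE 0.12, limma adjusted p = 0.45). In both genes the 3 HFD libraries lay close together. Txnrd1 and Nfe2l2, which fell with HFD in WT, had log2 fold changes of 0.07 (SE 0.13, limma adjusted p = 0.86) and 0.05 (SE 0.14, limma adjusted p = 0.92) in miR-146a-/-. With Nqo1 left apart, all 9 fold changes were above 0, against 42.6% of all genes. However, without replicate 1 of miR-146a-/- on HFD those of Gsr (-0.55), Slc7a11 (-0.35), Prdx6 (-0.09) and Nfe2l2 (-0.07) were below 0.

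**Figure D3:**
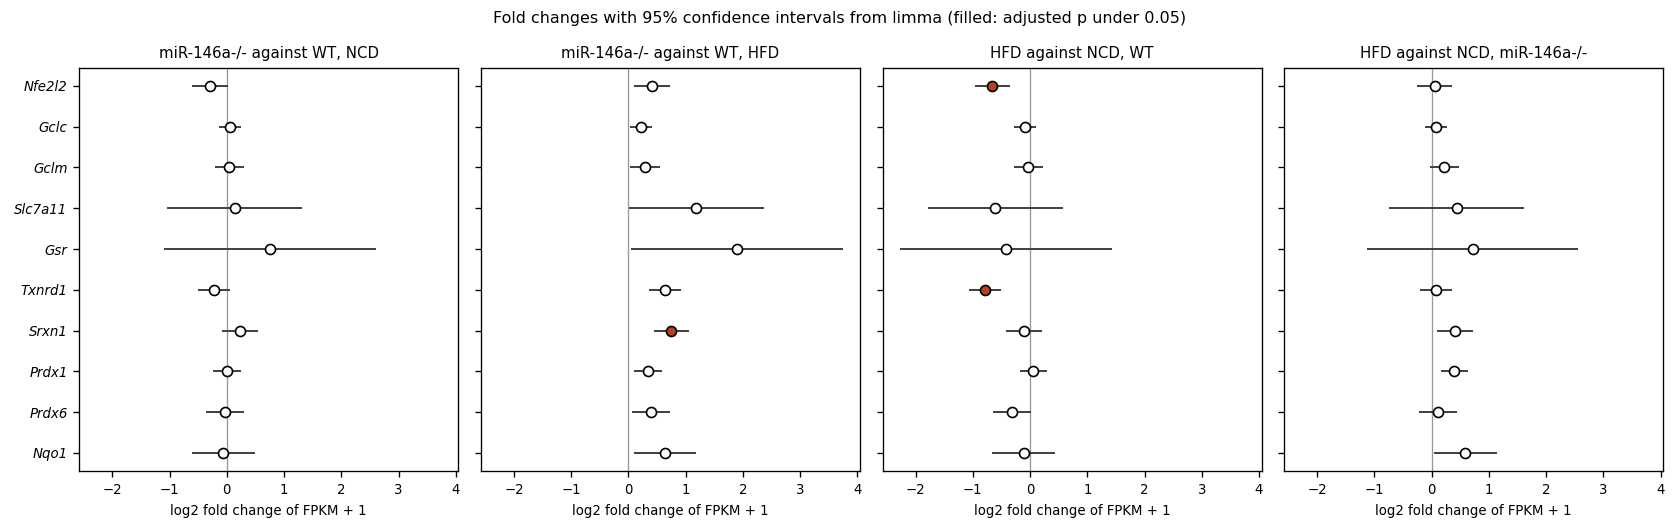
Log2 fold changes of FPKM + 1 with 95% confidence intervals from limma for the 10 genes in 4 comparisons, 3 libraries in each group, filled where the adjusted p is under 0.05. Filled points are Srxn1 (0.75) for genotype on HFD and Txnrd1 (-0.79) and Nfe2l2 (-0.66) for diet in WT, and the widest intervals are those of Gsr and Slc7a11.

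Whether the genotype effect differed between the diets was tested by the difference of the fold changes. No member passed, nor did any gene of the table (0% of 12119 by limma, 0 by limma voom). An unadjusted p under 0.05 was seen for 4 of the 10 members, all with positive differences, against 4.48% of all genes in that direction. In either direction 1481 of all genes (12.2%) had one. The comparisons share libraries, so their fold changes are not separate evidence. Txnrd1 had a difference of 0.85 (SE 0.18, unadjusted p = 0.00060, limma adjusted p = 0.18), from genotype effects of -0.22 on NCD and 0.63 on HFD. Nfe2l2 had one of 0.71 (SE 0.20, limma adjusted p = 0.23), Srxn1 of 0.51 (SE 0.20, limma adjusted p = 0.35) and Prdx1 of 0.34 (SE 0.15, limma adjusted p = 0.41). Without miR-146a-/- HFD replicate 1 Txnrd1, Nfe2l2 and Srxn1 kept an unadjusted p under 0.05, and Prdx1 had one of 0.051. The share of all genes with such a p and a positive difference was then 5.71%. For Gsr the difference of 1.14 (SE 1.17) was -0.13 without miR-146a-/- HFD replicate 1.

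Other genes of the NRF2 pathway were taken from 5 lists of 83 genes, of which 80 were in the table and 77 were tested. In the genotype comparison on HFD 36 of the 77 fold changes were positive, and their median was -0.04 on the log2 scale, close to the -0.02 of all genes. One passed, and it was lower. Gpx3, the secreted glutathione peroxidase, stood at 21.7, 16.1 and 18.4 FPKM in WT and at 7.67, 7.54 and 9.87 FPKM in miR-146a-/- on HFD (log2 fold change -1.07, SE 0.20, limma adjusted p = 0.047). Its knockout libraries were all below its WT libraries on that diet, but the call held in 8 of 20 alternatives (limma adjusted p of 0.0091 to 0.19) and in 2 of the 12 fits that left out a library, those without WT NCD replicate 1 or 2. On NCD they were likewise all below, at 9.90, 8.60 and 9.71 FPKM against 20.8, 10.8 and 16.0 FPKM in WT (log2 fold change -0.65, SE 0.20, limma adjusted p = 0.49). The summed fibroblast and preadipocyte markers were at 473 to 861 FPKM in the miR-146a-/- libraries on HFD and 853 to 1575 FPKM in the WT ones. On NCD these markers overlapped, at 748 to 994 FPKM in miR-146a-/- and 519 to 1186 FPKM in WT. Their part in the level of Gpx3 was not tested.

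The 11 regulators of NRF2 held 8 positive fold changes on HFD, with a median of 0.19 and none called. Bach1, the repressor that competes with NRF2 for its sites, stood at 88.2, 78.9 and 70.0 FPKM in WT on NCD and fell to 50.8, 44.1 and 54.2 FPKM in WT on HFD (log2 fold change -0.66, SE 0.12, limma adjusted p = 0.018). In miR-146a-/- it was at 63.0, 68.2 and 69.8 FPKM on NCD and 58.7, 62.2 and 75.1 FPKM on HFD. The fall of Bach1 in WT was called in 16 of 20 alternatives, and not without WT NCD replicate 1 or 2 or WT HFD replicate 1 or 2 (limma adjusted p of 0.056 to 0.081). Keap1, the adaptor that targets NRF2 for degradation, was at 11.4 ± 1.13 FPKM in WT and 10.1 ± 0.47 FPKM in miR-146a-/- on HFD (SD, n = 3 each, log2 fold change -0.16, limma adjusted p = 0.39). Cul3, the scaffold of the same ubiquitin ligase, was at 29.9 ± 0.52 and 34.4 ± 2.13 FPKM (log2 fold change 0.19, limma adjusted p = 0.23). Neither passed in any comparison.

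Of 25 genes tested for glutathione synthesis and use 10 had a positive fold change on HFD and 24 were not called. Glrx, a glutaredoxin, was at 19.4 ± 0.57 FPKM in WT and 25.6 ± 4.53 FPKM in miR-146a-/- on HFD (log2 fold change 0.37, limma adjusted p = 0.13). Gsta4, a glutathione transferase, was at 1.02 ± 0.15 FPKM on NCD and 2.29 ± 0.16 FPKM on HFD in WT (log2 fold change 0.70, limma adjusted p = 0.11). Among the 12 other genes of the thioredoxin and peroxiredoxin families 5 had a positive fold change between genotypes on HFD and the median was -0.30. Txnip, which binds and inhibits thioredoxin, was at 491.6 ± 17.7 FPKM in WT and 343.4 ± 71.9 FPKM in miR-146a-/- on HFD (log2 fold change -0.54, limma adjusted p = 0.11). The sestrins Sesn1 (log2 fold change -0.69, limma adjusted p = 0.16) and Sesn3 (-0.28, limma adjusted p = 0.38) were also not called there. Sesn3 had a log2 fold change of -0.66 (SE 0.16, limma adjusted p = 0.099) between diets in miR-146a-/-.

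The 23 other NRF2 targets tested held 8 positive fold changes on HFD and none was called. Hmox1, the heme oxygenase that breaks down heme and a target of both NRF2 and BACH1, stood at 138.8, 121.0 and 130.0 FPKM in WT and at 202.6, 155.1 and 191.7 FPKM in miR-146a-/- on HFD (log2 fold change 0.48, SE 0.12, limma adjusted p = 0.093). Its groups did not overlap, and it passed on leaving out miR-146a-/- HFD replicate 2 (limma adjusted p = 0.046, against up to 0.38 in the other alternatives). Osgin1 (log2 fold change 0.12, limma adjusted p = 0.63) and Akr1b8, an aldo-keto reductase (-0.20, limma adjusted p = 0.44), had smaller values in that comparison. Between diets both were above 0 in either genotype, and neither passed. Osgin1 had a log2 fold change between diets of 0.45 in WT (SE 0.12, limma adjusted p = 0.068) and 0.54 in miR-146a-/- (SE 0.12, limma adjusted p = 0.067), and Akr1b8 of 0.37 (SE 0.13, limma adjusted p = 0.15) and 0.59 (SE 0.13, limma adjusted p = 0.067). With array quality weights Osgin1 passed in both genotypes (limma adjusted p = 0.012 and 0.020) and Akr1b8 in miR-146a-/- (0.020). Those weights raised the number of all genes that passed from 361 to 1588 in WT and from 92 to 706 in miR-146a-/-. In WT 17 of the 23 genes were above 0 between diets, with a median of 0.11, where 1 of the 10 members was. Of the 6 genes of NADPH supply tested, Taldo1, the transaldolase, had a log2 fold change of 0.72 (limma adjusted p = 0.26), with 174.6 FPKM in miR-146a-/- HFD replicate 1 and 65.2 and 67.5 FPKM in replicates 2 and 3. Tkt, the transketolase, was likewise at 82.2, 47.4 and 42.0 FPKM (log2 fold change 0.40, limma adjusted p = 0.32), while Pgls, the lactonase of the same pathway, differed by -0.01 (limma adjusted p = 0.97). On NCD and between diets in miR-146a-/- no gene of the 5 lists was called. There 3 and 14 of the 77 genes had a limma unadjusted p under 0.05, against 6.68% and 13.4% of all genes. In WT between diets only Bach1 was called. For genotype on HFD and diet in WT 17 and 12 of the 77 genes had such a p, against 17.5% and 19.1% of all genes.

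**Figure D4:**
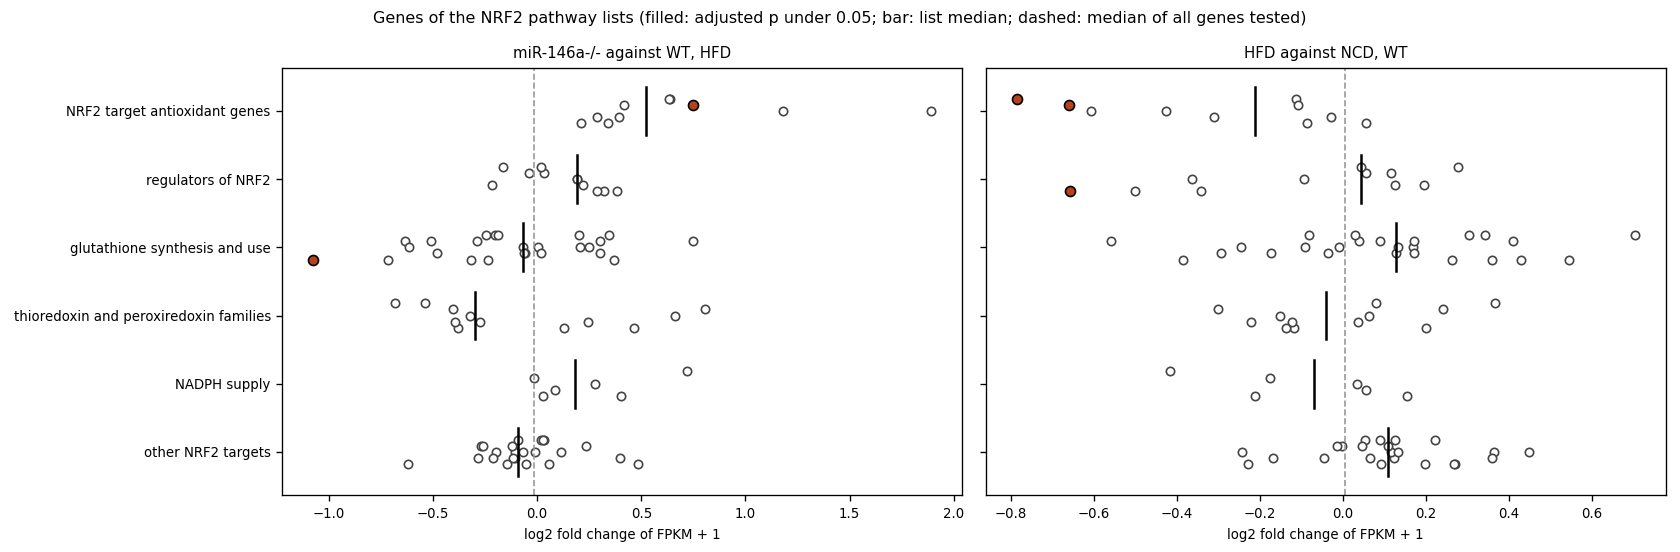
Log2 fold changes of FPKM + 1 for the 10 genes (top row) and the 5 other lists of the NRF2 pathway, each point a gene, filled where the limma adjusted p is under 0.05, with a bar at the list median and a dashed line at the median of all genes tested. For genotype on HFD (left) the 10 genes, Nqo1 included, have a median of 0.52 and the other lists medians of -0.30 to 0.19, and for diet in WT (right) the filled points are Txnrd1, Nfe2l2 and Bach1.

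The genes whose profile over the 12 libraries lay closest to those of Srxn1 and Txnrd1 were sought by the root mean square difference of log2(FPKM + 1), each gene centred on its own mean. Closest to Srxn1 were Ets2, a transcription factor (0.16), Nfkbib, an inhibitor of NF-κB (0.17), and Basp1 (0.17), where the deviation of Srxn1 itself was 0.32. Closest to Txnrd1 were Zc3h12c (0.083), Plek, the pleckstrin of blood cells (0.089), and Bach1 (0.11), where its own deviation was 0.33. The group means of Plek, for example, were 315.2 FPKM in WT on NCD, 284.2 FPKM in miR-146a-/- on NCD, 210.0 FPKM in WT on HFD and 321.7 FPKM in miR-146a-/- on HFD, with WT on HFD the lowest, as for Txnrd1.

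The members lie at chr2:75675512-75704641 (Nfe2l2), chr2:152105515-152111376 (Srxn1), chr10:82859205-82897724 (Txnrd1), chr8:107388224-107403206 (Nqo1), chr3:122245556-122269984 (Gclm), chr9:77754534-77794485 (Gclc), chr3:50364935-50443613 (Slc7a11), chr8:33652522-33698163 (Gsr), chr4:116685543-116700822 (Prdx1) and chr1:161240111-161251219 (Prdx6) in mm10, as the expression table gives them. Some share sequence with other annotated genes, and how such reads were assigned is not given in the sources used here. Eid3 lies within Txnrd1 on the same strand, Gm17494 overlaps Gclm on the opposite strand and Gm6061 on the same one, Gsr and Nfe2l2 each contain a small noncoding RNA gene, Gm37498 overlaps Slc7a11 on the same strand, and Prdx6 has the near copies Prdx6b and Prdx6-ps2, so the levels of these genes carry that uncertainty.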

How the data were processed

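RNA of sorted ATMs was sequenced by the submitters from 12 libraries, 3 for each genotype and diet, each a pool of 3 mice (TruSeq Stranded kit with Ribo-Zero Gold, single reads). The deposited values are FPKM, which the authors divided by gene length and by the reads counted to genes. Novoalign, DESeq2 and mm10 are listed in the submitters' processing notes with no versions or roles, and how reads were counted is not given in the sources used here. Multiplying back gave whole reads for all 184716 values (within 1e-06), and limma voom on those reads was an alternative. Depth was 9998868 to 11559282 reads per library.

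Groups came from the labels. For the 12119 genes averaging 1 FPKM or more over the libraries, log2(FPKM + 1) was fitted with limma 3.58.1 in R 4.3.3 (trend, robust, statmod 1.5.0), with a mean for each group and Benjamini-Hochberg adjustment over all genes within each of 5 comparisons (threshold 0.05). The fit was tested on simulated data. With 3 libraries a group an exact permutation test of 1 gene cannot go below 0.1. Replicates are separate pools, so p-values measure the spread between pools. The alternatives were another pseudocount, filter or scaling, the compared groups alone, a replicate block, array quality weights, voom, and leaving out each library.

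All 10 members are described. From each pathway list, genes that passed any comparison and the 3 with the smallest adjusted p are named, and for Srxn1 and Txnrd1 the 3 closest profiles. Members and lists were chosen with earlier results of these data known.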

Additional observations from a re-analysis of the deposited data

Results flagged for a closer look

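For Nfe2l2 and Txnrd1 the 3 miR-146a-/- libraries were all below the 3 WT libraries on NCD and all above them on HFD. Of all genes tested 7.91% were so placed on NCD and 8.51% on HFD. The share of genes placed so on both diets was not computed, so how unusual this pattern is cannot be said. The difference of the genotype effects between diets was 0.71 for Nfe2l2 and 0.85 for Txnrd1 on the log2 scale. Tested itself in limma, it did not pass (adjusted p = 0.23 and 0.18), with a range of 0.073 to 0.44 for Nfe2l2 and 0.051 to 0.39 for Txnrd1 over the alternatives. Without miR-146a-/- HFD replicate 1 it was 0.59 and 0.92. No outlier test was run on groups of 3. The library set apart by its neutrophil markers, miR-146a-/- HFD replicate 1, also had the lowest array quality weight, 0.16.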

How the results depend on the processing

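The count of members that passed for genotype on HFD was 1 (Srxn1). It was 0 with no filter on low values, with the compared groups only and with a replicate block, and 2 (with Txnrd1) with a mean of at least 5 FPKM, where 7 members were tested, with array quality weights and with limma voom. It ranged from 0 to 2 over the fits without 1 library, and 10 of those 12 fits gave 0. For diet in WT it was 2, and 0 to 3 without 1 library, where 86 to 1185 of all genes passed. For diet in miR-146a-/- it was 0, and 1 (Prdx1) with array quality weights. Those weights also raised the number of all genes that passed. That number was 594 against 76 for genotype on HFD, 1588 against 361 for diet in WT and 706 against 92 for diet in miR-146a-/-. With limma voom 123 genes passed for genotype on HFD. The direction of the genotype effect on HFD held in every alternative for the members tested in it, of which Nqo1 had entered the test through this group. The groups did not overlap for any member, so leaving out or weighting libraries could not turn it. It is therefore no separate check. On NCD Gclm was -0.0059 and Prdx1 -0.0544 with array quality weights, and Prdx1 -0.0192 with median-ratio scaling. For diet in miR-146a-/- array quality weights gave -0.0257 for Nfe2l2, -0.0017 for Txnrd1, -0.2416 for Slc7a11, -0.2318 for Gsr and -0.0818 for Prdx6. Among the pathway genes, Pgls on HFD was 0.0138 with median-ratio scaling, and -0.0965 to 0.0785 without 1 library. Glrx (adjusted p = 0.018) and Txnip (0.044) passed for genotype on HFD and Gsta4 (0.033) for diet in WT with array quality weights in limma, Glrx also without miR-146a-/- HFD replicate 3 (0.032), and Gsta4 also with the compared groups only (0.023) and without miR-146a-/- NCD replicate 2 (0.031).

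Leaving out 1 library turned the sign of these log2 fold changes. On NCD they ranged from -0.2009 to 0.0573 for Nqo1, -0.0787 to 0.1075 for Gclm, -0.0183 to 0.1067 for Gclc, -0.0875 to 0.2773 for Slc7a11, -0.0862 to 0.1073 for Prdx1 and -0.1017 to 0.0385 for Prdx6. For diet in WT they ranged from -0.2466 to 0.0174 for Nqo1, -0.1482 to 0.0380 for Gclm and -0.0311 to 0.1624 for Prdx1. For diet in miR-146a-/- they ranged from -0.0677 to 0.1374 for Nfe2l2, -0.0655 to 0.1369 for Txnrd1, -0.3496 to 0.8614 for Slc7a11, -0.5531 to 1.4492 for Gsr and -0.0919 to 0.2355 for Prdx6. The difference for Gsr ranged from -0.1268 to 1.8755. None of these passed the test. The causes were not tested. The labels number the replicates alike in each group, but of 18 pairs with the same number only 2 had deviations correlated above 0.1 (range -0.054 to 0.12), so the numbers were not taken as pairing, and the replicate block gave 95 genes for genotype on HFD against 76 without it. Nqo1, on 8 to 52 reads per library, is the member most limited by depth.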
